A study of Mus musculus with 15 samples.

Results

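Mouse embryonic stem cells given 2-deoxy-D-glucose (2-DG) at 10 mM were compared with cells given 5 mM, which asks what the upper dose of a glycolysis inhibitor changes beyond the lower one. The comparison takes 6 of the 15 samples of the series, 3 at 10 mM and 3 at 5 mM as the labels assign them. It covers 13284 of the 32152 genes in the deposited table, those with at least 1 FPKM in at least 3 of the 15 samples, where FPKM is the number of fragments per kilobase of transcript scaled to sequencing depth. The cells were of the C57BL/6 strain, pluripotent cells of the early embryo kept in a serum medium with leukemia inhibitory factor, glutamine and sodium pyruvate, and no feeder layer is named. Both 2-DG groups were treated for 48 hours. The other 9 samples, which enter the filter and the shared estimate of spread and are also used below to place the values, were 3 with oligomycin at 10 nM and 3 at 1 nM, also for 48 hours, and 3 mock samples whose duration is not given. Neither separate cultures for the 3 replicates nor the number of cell lines is stated in the labels, so each p-value reflects the spread among these samples alone, which may be technical.

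2-DG is a glucose analog that enters the cell through glucose transporters and is phosphorylated by hexokinase to a product that glycolysis cannot use, which slows the pathway at its first steps. It also resembles mannose, and it can be built into the lipid-linked sugars from which N-glycans are made, so that proteins in the endoplasmic reticulum (ER) are glycosylated poorly. Poorly folded ER proteins set off the unfolded protein response, in which sensors raise chaperones and degradation factors. Shortage of amino acids, ER stress and other insults converge on phosphorylation of the translation factor eIF2-alpha, and the transcription factors ATF4 and CHOP that follow are known as the integrated stress response.

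Sequencing depth, worked out from the whole-number steps in the low FPKM values, was 18.0 to 19.2 M reads at 10 mM and 17.8 to 18.7 M reads at 5 mM, and 17.4 to 19.2 M reads over all 15 samples. The 2-DG samples correlated at 0.9918 to 0.994 within a dose and at 0.9891 to 0.991 between the doses (Pearson's r of log2(FPKM + 1) over genes, none of which is an independent replicate). The summed FPKM of 8 stem cell markers was 1411 to 1439 at 10 mM and 1566 to 1644 at 5 mM, against 1857 to 2045 in mock samples, and all 8 exceeded 1 FPKM in each of these groups. Of the 8, Tdgf1 alone passed the threshold given below between the 2-DG doses. In the same samples 8 fibroblast markers summed to 1048 to 1160 FPKM at 10 mM, 976.9 to 1047 FPKM at 5 mM and 1244 to 1264 FPKM in mock.

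Between the doses 779 of the 13284 genes (5.86%) passed the threshold, an adjusted p under 0.05 from limma with Benjamini-Hochberg adjustment over all genes tested. Of these, 453 (3.41%) were higher at 10 mM and 326 (2.45%) lower. The changes were small. The median size of a called change was 0.30 on the log2 scale, 77 called genes moved by at least 0.5, with 38 higher and 39 lower, and a single gene, Phlda2, moved by a factor of 2 or more. Log2 changes throughout are of FPKM + 1, which understates the change of low genes, and are given as 10 mM minus 5 mM with their standard error. The 3 values at 10 mM lay outside the range of the 3 values at 5 mM for all 779 called genes, and the same held for 31.7% of all genes tested. Each library carried weight in the total: 469, 273 and 426 genes were called without 10 mM replicates 1, 2 and 3, and 393, 343 and 393 without 5 mM replicates 1, 2 and 3. Of the 779 calls, 231 were made in every one of these 6 fits, 143 higher and 88 lower, and the genes described below are from those 231 unless the text says otherwise. Fitted on the 6 samples of the 2 doses alone, 907 genes were called, 589 of them among the 779.

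The 12 largest rises were between 0.59 and 0.76 on the log2 scale. They and the falls below come from called genes with at least 5 FPKM at either dose and no overlap between doses. Prph, which encodes the neuronal intermediate filament peripherin (chr15:99055174-99058978, GRCm38), had 9.22, 9.50 and 8.97 FPKM at 10 mM, against 6.03, 4.55 and 4.67 FPKM at 5 mM, a change of 0.76 ± 0.082 (adjusted p = 0.00035, limma). All 3 values at 10 mM were above all 3 at 5 mM, and 1 sample at 5 mM stood above the other two. Ptx3, a secreted pentraxin of innate immunity, had 35.3, 37.8 and 36.1 FPKM at 10 mM, against 20.2, 22.7 and 21.4 FPKM at 5 mM (0.74 ± 0.097, adjusted p = 0.00095). The groups were far apart, with little spread within either. A pair of proteases that cut the proteoglycans of the extracellular matrix rose together. Adamts5 had 13.2, 14.3 and 14.1 FPKM at 10 mM, against 8.73, 7.27 and 7.54 FPKM at 5 mM (0.75 ± 0.10, adjusted p = 0.0014), and Adamts1 averaged 16.9 ± 0.145 FPKM at 10 mM and 10.5 ± 0.456 FPKM at 5 mM (SD, n = 3 each, 0.63 ± 0.067, adjusted p = 0.00035). The basement membrane collagen chain gene Col4a5 rose by 0.59 ± 0.099, the secreted C1q-family protein gene C1qtnf3 by 0.73 ± 0.076 and Glce, which encodes the epimerase that shapes heparan sulfate, by 0.64 ± 0.078. Acot2, a mitochondrial thioesterase of fatty acyl-CoA, averaged 15.7 ± 0.875 FPKM at 10 mM and 9.09 ± 0.593 FPKM at 5 mM (SD, n = 3 each, 0.72 ± 0.078, adjusted p = 0.00035). The others were Fam129a (0.69 ± 0.090), also known as Niban and induced by ER stress, Ubap1l (0.63 ± 0.11), the CHOP gene Ddit3 and Nucb2 (0.62 ± 0.098), a calcium-binding protein of the secretory pathway.

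**Figure D1:**
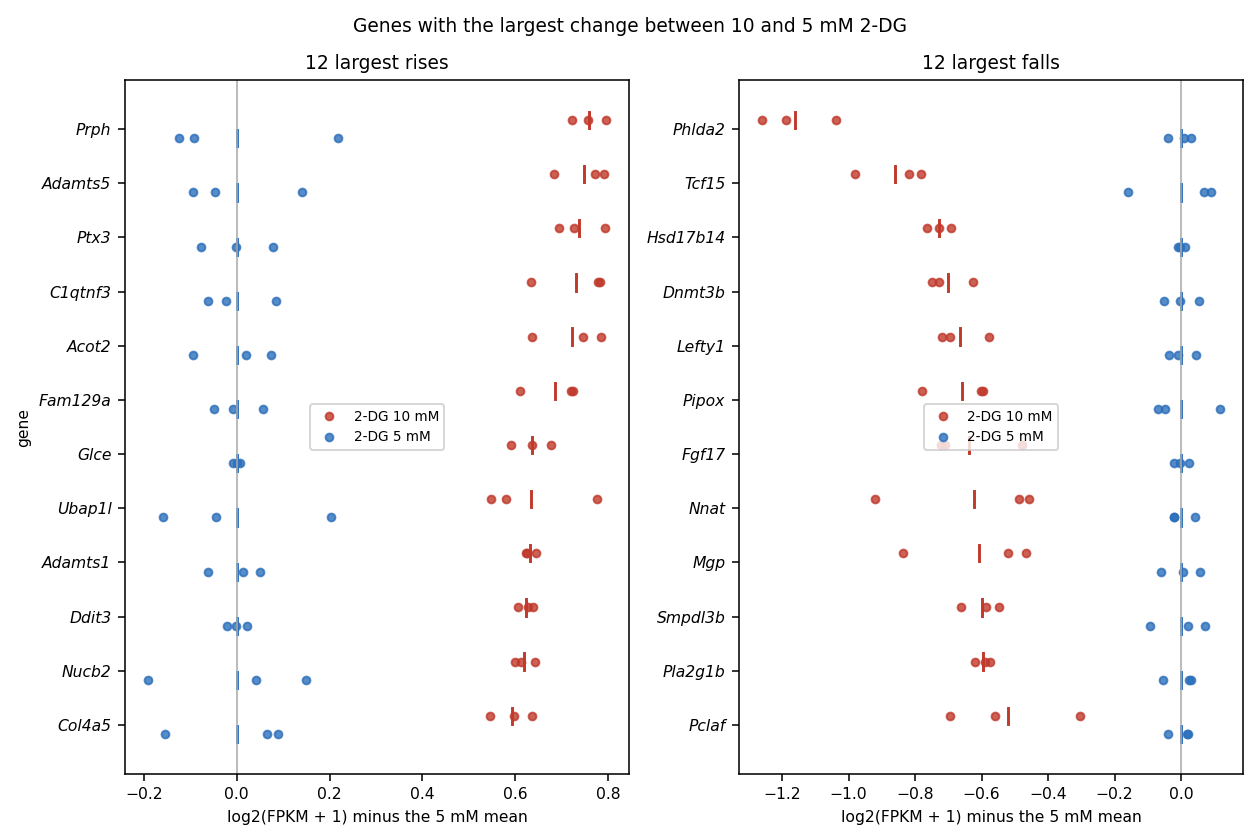
Values of the 12 largest rises (left) and the 12 largest falls (right), as log2(FPKM + 1) minus the mean of the 5 mM samples, with 10 mM samples in red above 5 mM samples in blue (points, samples; ticks, means). Only called genes without overlap between the doses were eligible, so the separation seen here comes with that choice. Phlda2, at -1.16, lies farthest from its 5 mM samples.

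The 12 largest falls were between 0.52 and 1.16 on the log2 scale, led by Phlda2 and Tcf15. In bulk RNA a lower level may mean fewer cells of a type or less RNA per cell, and the measurement cannot tell these apart. Phlda2 is an imprinted gene for a pleckstrin-homology protein that restrains placental growth (chr7:143501545-143503150, GRCm38). Its level was 5.46, 6.54 and 5.79 FPKM at 10 mM, against 14.8, 14.6 and 14.1 FPKM at 5 mM, a change of -1.16 ± 0.11 (adjusted p = 0.00035). The highest sample at 10 mM was still under the lowest at 5 mM by a wide margin. Tcf15, a basic helix-loop-helix factor of early epiblast and somites, had 5.62, 5.46 and 4.77 FPKM at 10 mM, against 11.1, 9.21 and 10.9 FPKM at 5 mM (-0.86 ± 0.16, adjusted p = 0.0068). Hsd17b14, a dehydrogenase of steroid substrates, averaged 11.7 ± 0.326 FPKM at 10 mM and 20.1 ± 0.144 FPKM at 5 mM (SD, n = 3 each, -0.73 ± 0.076, adjusted p = 0.00035). Pipox, a peroxisomal oxidase of pipecolic acid and sarcosine, fell by 0.66 and the phospholipase gene Pla2g1b by 0.60. Smpdl3b, a lipid-modifying phosphodiesterase of the cell surface, changed by -0.60 ± 0.087, the growth factor gene Fgf17 by -0.64 ± 0.10 and Pclaf, whose product binds the replication clamp PCNA, by -0.52 ± 0.076. Mgp, an inhibitor of matrix calcification, averaged 4.99 ± 0.797 FPKM at 10 mM and 8.07 ± 0.369 FPKM at 5 mM (SD, n = 3 each, -0.61 ± 0.13, adjusted p = 0.013), but its call was lost in 2 fits (adjusted p = 0.054 without 10 mM replicate 1, and 0.055 without 5 mM replicate 2, and 0.0020 to 0.055 over all alternatives). Dnmt3b, Lefty1 and Nnat complete the 12 and are described with their groups.

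Among the 38 gene lists examined, the integrated stress response was the one with the highest share of members called in one direction. Of its 22 members 12 rose and 0 fell, with a median change of 0.31 beside -0.002 over all genes tested. Ddit3, the gene of the transcription factor CHOP (chr10:127290774-127296288, GRCm38), had 30.9, 31.2 and 30.4 FPKM at 10 mM, against 19.4, 19.6 and 19.99 FPKM at 5 mM (0.62 ± 0.072, adjusted p = 0.00049). Replicates of a dose were within 1 FPKM of each other and the doses did not overlap. Trib3, a pseudokinase induced by ATF4 and CHOP, had 85.7, 81.99 and 78.7 FPKM at 10 mM, against 56.3, 56.2 and 55.9 FPKM at 5 mM (0.54 ± 0.064, adjusted p = 0.00055). Atf5, a transcription factor translated when eIF2-alpha is phosphorylated, had 139, 132 and 129 FPKM at 10 mM, against 90.4, 82.1 and 93.4 FPKM at 5 mM (0.59 ± 0.093, adjusted p = 0.0030). For both genes the lowest sample at 10 mM exceeded the highest at 5 mM. Atf3, another factor of the response, averaged 12.3 ± 0.921 FPKM at 10 mM and 7.995 ± 0.211 FPKM at 5 mM, and Ppp1r15a, the phosphatase subunit GADD34 that reverses eIF2-alpha phosphorylation, averaged 34.7 ± 1.62 FPKM at 10 mM and 23.5 ± 0.842 FPKM at 5 mM (SD, n = 3 each). Their changes were 0.56 ± 0.077 (adjusted p = 0.0014) and 0.54 ± 0.060 (adjusted p = 0.00035). The secreted hormone gene Stc2 (0.42 ± 0.066), the repressor gene Jdp2 (0.42 ± 0.066), the factor gene Cebpg (0.38 ± 0.064) and Chac1, a glutathione-degrading enzyme (0.34 ± 0.051), also rose, and are named here after their values were seen. Atf4 itself, the central factor of the response, did not pass. It had 354, 343 and 334 FPKM at 10 mM, against 309.7, 308 and 302 FPKM at 5 mM (0.16 ± 0.070, adjusted p = 0.20). Its 3 values at 10 mM were all above those at 5 mM, a separation in either direction that 31.7% of all genes tested showed. The list count was 10 or 11 of 22 in each of the 6 fits without 1 library, and Sesn2 and Vldlr were the members that did not hold in all of them.

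The promoters of these genes were searched for the element shared by genes that ATF4 and its C/EBP partners bind, written TGATGNAA here and counted on both strands. The window ran from 250 bases before to 50 bases after the start of the transcript, from RefSeq on GRCm38.p6. The element was in the window of 6 of the 12 called members (50%), namely Atf3, Chac1, Herpud1, Jdp2, Trib3 and Vldlr, in 2.72% of the 9590 tested genes with a window, and in 4.51% of all 27025 genes with one. It was also in the windows of Fgf21 and Nupr1, members that did not pass. The list was made of genes of this response, so a high share among its members may come with that choice. The share is no result of the dose step. The element was in 7.14% of the 364 genes called higher that had a window and in 3.69% of the 244 called lower. A match describes letters and not a bound site. The 3 windows below are those of the members with the element whose levels are given per sample or per group. Atf3 (chr1:191183284-191183583, minus strand) and Herpud1 (chr8:94386179-94386478, plus strand) carry it upstream of the start and Trib3 (chr2:152344011-152344310, minus strand) carries it just after the start. Herpud1 is counted both here and among the degradation factors below. Capitals mark the element, which stands on the reverse strand in all 3, and sequences run 5′ to 3′ along the gene.
Atf3: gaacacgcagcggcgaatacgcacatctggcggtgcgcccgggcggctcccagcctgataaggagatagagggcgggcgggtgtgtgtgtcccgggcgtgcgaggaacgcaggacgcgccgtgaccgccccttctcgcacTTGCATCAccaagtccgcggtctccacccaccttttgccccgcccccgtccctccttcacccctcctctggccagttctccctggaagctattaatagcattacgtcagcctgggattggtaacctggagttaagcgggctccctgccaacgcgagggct
Herpud1: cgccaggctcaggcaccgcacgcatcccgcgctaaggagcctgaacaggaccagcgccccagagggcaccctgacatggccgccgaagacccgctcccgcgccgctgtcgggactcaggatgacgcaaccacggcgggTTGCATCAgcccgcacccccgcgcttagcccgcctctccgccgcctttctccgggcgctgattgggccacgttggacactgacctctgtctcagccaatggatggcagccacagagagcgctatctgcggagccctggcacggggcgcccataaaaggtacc
Trib3: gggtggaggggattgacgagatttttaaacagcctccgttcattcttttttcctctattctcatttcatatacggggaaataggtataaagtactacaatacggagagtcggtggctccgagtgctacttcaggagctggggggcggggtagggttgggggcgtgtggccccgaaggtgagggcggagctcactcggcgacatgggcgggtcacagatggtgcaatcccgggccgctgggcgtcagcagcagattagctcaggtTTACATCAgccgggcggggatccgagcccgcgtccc

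Of 20 chaperones and folding enzymes of the ER 8 rose, 0 fell and 12 did not pass, and 2 of the 8 calls held in all 6 fits. The median change was 0.18, and 18 of the 20 had all values at 10 mM above all values at 5 mM, a separation in either direction that 31.7% of all genes tested showed. Dnajc3, a co-chaperone that restrains the eIF2-alpha kinase of the ER, had 33.2, 36.2 and 36.7 FPKM at 10 mM, against 27.2, 25.9 and 25.02 FPKM at 5 mM (0.43 ± 0.063, adjusted p = 0.0021). Pdia4, a disulfide isomerase, had 186, 199 and 193 FPKM at 10 mM, against 151, 149 and 146 FPKM at 5 mM (0.38 ± 0.061, adjusted p = 0.0034). In both genes the doses were clear of each other. Hspa5, which encodes BiP, the main chaperone of the ER, had 462, 504 and 508 FPKM at 10 mM, against 390.3, 422 and 401 FPKM at 5 mM (0.28 ± 0.068, adjusted p = 0.028). Its groups did not overlap, but its call was lost in 5 fits without 1 library (adjusted p = 0.11 and 0.094 without 10 mM replicates 2 and 3, and 0.097, 0.054 and 0.083 without 5 mM replicates 1, 2 and 3, and 0.011 to 0.11 over all alternatives). The lectin chaperone genes Canx (0.28 ± 0.060, adjusted p = 0.016) and Calr (0.18 ± 0.048, adjusted p = 0.046) bind N-glycans on new proteins. The Canx call was lost in 3 fits (adjusted p = 0.071 and 0.065 without 10 mM replicates 2 and 3, and 0.074 without 5 mM replicate 2, and 0.0092 to 0.074 over all alternatives) and the Calr call without any 1 of the 6 libraries (adjusted p = 0.086 to 0.15, and 0.0067 to 0.15 over all alternatives). With 1 library left out, members called numbered 7, 2 and 3 without 10 mM replicates 1, 2 and 3, and 4, 3 and 4 without 5 mM replicates 1, 2 and 3.

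The ER stress element, CCAAT and CCACG with 9 bases between them, is the site through which ATF6 and the factor NF-Y act on chaperone genes. In the same promoter windows, on both strands, it was found in 0.137% of the 27025 genes, 37 in all, in 0.177% of the 9590 tested genes with a window, and in 4 of the 7 called chaperone genes that had a window (57.1%), namely Hspa5, Dnajc3, Canx and Calr. It was also in the windows of 4 members that did not pass, Creld2, Ero1lb, Hsp90b1 and Pdia6. The list was made of chaperone genes, on which this element acts, so a high share among its members may come with that choice. The share is no result of the dose step. The 3 windows below are Dnajc3 (chr14:118937682-118937981, plus strand), Hspa5 (chr2:34771840-34772139, plus strand) and Canx (chr11:50325624-50325923, minus strand), shown because one of them belongs to the chaperone gene with the firmest call and the others to the best known ones. Capitals mark the element from CCAAT to CCACG.
Dnajc3: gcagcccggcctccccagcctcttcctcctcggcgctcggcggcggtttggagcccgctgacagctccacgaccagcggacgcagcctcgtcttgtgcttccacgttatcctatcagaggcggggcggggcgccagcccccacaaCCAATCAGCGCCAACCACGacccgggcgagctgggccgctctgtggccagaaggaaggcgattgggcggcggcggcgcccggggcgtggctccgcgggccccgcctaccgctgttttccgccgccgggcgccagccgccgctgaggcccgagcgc
Hspa5: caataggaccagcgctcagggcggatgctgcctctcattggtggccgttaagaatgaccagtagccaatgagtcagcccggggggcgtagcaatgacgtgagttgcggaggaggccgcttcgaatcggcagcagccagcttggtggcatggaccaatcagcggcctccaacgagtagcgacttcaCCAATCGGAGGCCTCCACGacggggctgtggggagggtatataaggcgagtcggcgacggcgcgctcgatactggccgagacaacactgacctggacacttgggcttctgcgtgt
Canx: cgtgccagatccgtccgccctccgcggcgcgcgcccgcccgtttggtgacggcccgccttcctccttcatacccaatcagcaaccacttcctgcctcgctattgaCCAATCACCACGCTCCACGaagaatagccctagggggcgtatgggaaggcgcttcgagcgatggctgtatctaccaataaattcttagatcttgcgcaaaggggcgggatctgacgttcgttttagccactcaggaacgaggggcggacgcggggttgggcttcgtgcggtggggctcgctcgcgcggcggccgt

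Factors that extract and degrade misfolded ER proteins followed, with 6 of 18 members of that list higher and 0 lower (median 0.17). Herpud1, which organises the ER ubiquitin ligase complex, had 45.1, 46.3 and 40.8 FPKM at 10 mM, against 32.2, 34.6 and 33.4 FPKM at 5 mM (0.39 ± 0.067, adjusted p = 0.0046). Os9, a lectin that hands glycoproteins to the ligase, had 39.2, 37.6 and 37.5 FPKM at 10 mM, against 29.04, 26.5 and 29.8 FPKM at 5 mM (0.41 ± 0.053, adjusted p = 0.00090). The values at 10 mM were the higher ones in every sample of both genes. Leaving out 1 library gave counts of 5, 2 and 5 without 10 mM replicates 1, 2 and 3, and 3, 4 and 4 without 5 mM replicates 1, 2 and 3. The enzymes that make hexosamine, dolichol and N-glycan precursors moved little, with 1 of 31 members higher, 1 lower and a median of 0.02. The rise was in Rpn2, a subunit of the oligosaccharyltransferase (0.17 ± 0.045), and the fall in Gfpt2, of the first step of hexosamine synthesis (-0.27 ± 0.052). The Rpn2 call was lost without any 1 of the 6 libraries (adjusted p = 0.053 to 0.14, and 0.0068 to 0.14 over all alternatives), and that of Gfpt2 in 1 fit (adjusted p = 0.052 without 10 mM replicate 2, and 0.0054 to 0.052 over all alternatives).

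Amino acid transporters rose in 5 of 14 members and fell in 0 (median 0.19). Slc38a7, a lysosomal exporter of glutamine, had 21.2, 18.8 and 20.1 FPKM at 10 mM, against 15.2, 15.2 and 15.4 FPKM at 5 mM (0.37 ± 0.066, adjusted p = 0.0057). The glycine transporter gene Slc6a9 averaged 3.88 ± 0.259 FPKM at 10 mM and 2.78 ± 0.0802 FPKM at 5 mM (SD, n = 3 each, 0.37 ± 0.068, adjusted p = 0.0068), and the neutral amino acid transporter gene Slc1a4 averaged 25.96 ± 0.668 FPKM and 21.3 ± 0.595 FPKM in the same order (0.28 ± 0.043, adjusted p = 0.0028). In the fits with 1 library fewer the count was 4, 3 and 5 without 10 mM replicates 1, 2 and 3, and 4, 4 and 4 without 5 mM replicates 1, 2 and 3. Enzymes of amino acid and one-carbon synthesis split, with 2 of 19 members higher and 2 lower and none of these calls held in all 6 fits. Asns, which makes asparagine, had 263, 276 and 274 FPKM at 10 mM, against 231, 256 and 236 FPKM at 5 mM (0.17 ± 0.060, adjusted p = 0.12), a difference that did not pass. Of 20 cytosolic aminoacyl-tRNA synthetases, which charge tRNAs with amino acids, Aars alone was called, at 0.20 ± 0.040 (adjusted p = 0.0099), and it was lost once (adjusted p = 0.053 without 10 mM replicate 2, and 0.0048 to 0.053 over all alternatives).

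**Figure D2:**
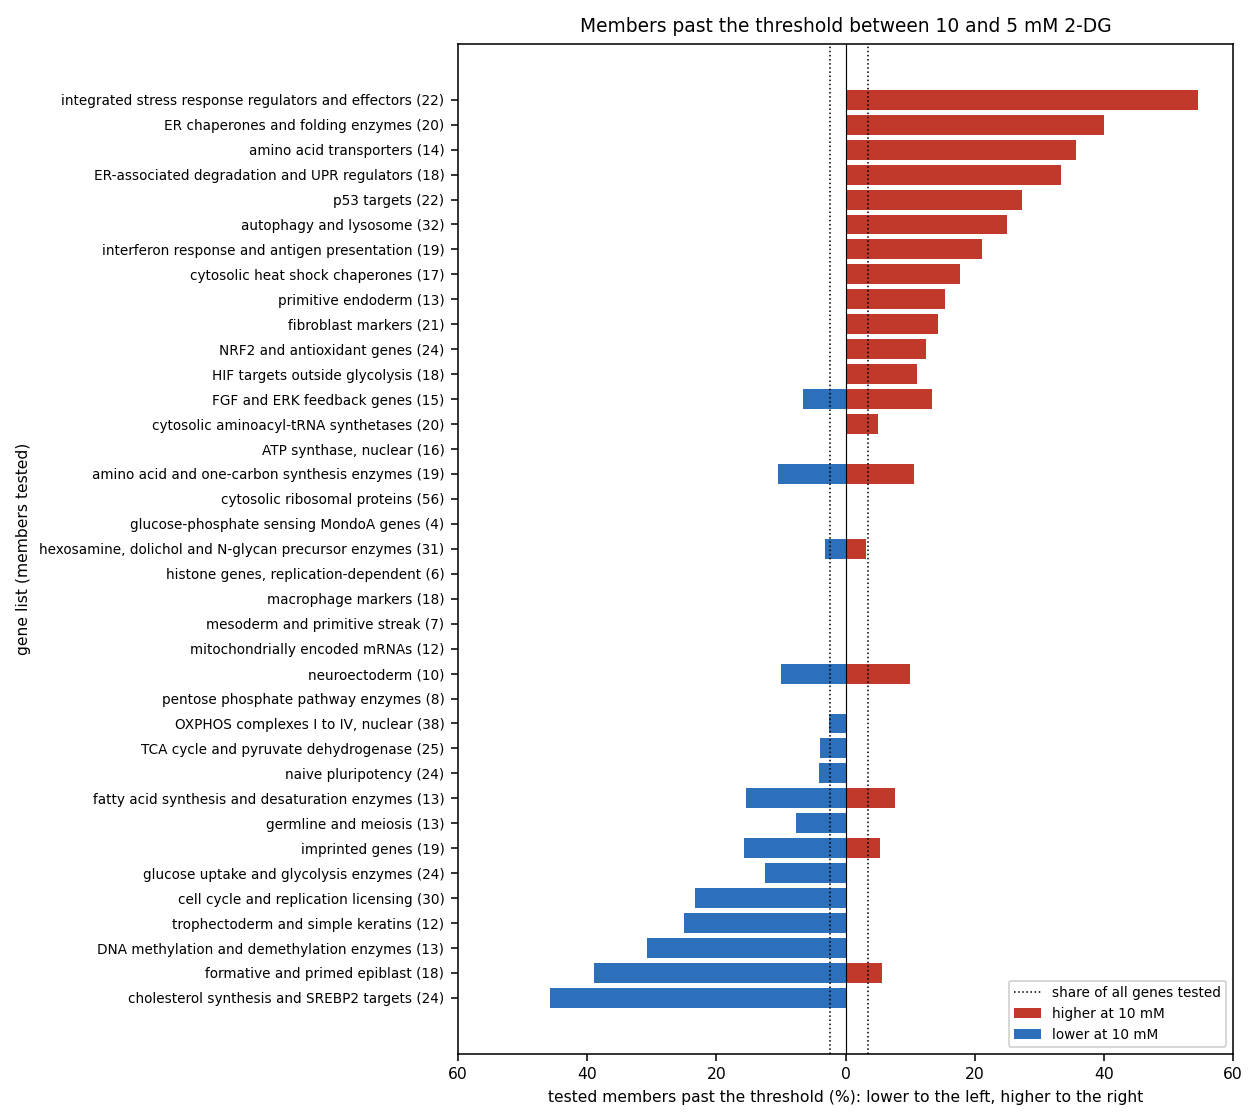
Share of tested members of each gene list that passed the threshold, lower at 10 mM to the left and higher to the right, with the number of members tested in parentheses and dotted lines at the shares of all genes tested (2.45% lower, 3.41% higher). The integrated stress response list, 12 of 22, reaches farthest right and the cholesterol list, 11 of 24, farthest left.

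The cholesterol pathway turns acetyl-CoA into sterols and is driven by the transcription factor SREBP2, whose release from the ER is held back by Insig proteins. Of 24 tested members and targets 0 rose, 11 fell and 13 did not pass, 4 of the 11 calls held in all 6 fits, and the median change was -0.28. Insig1 had 10.1, 8.90 and 9.04 FPKM at 10 mM, against 13.4, 14.4 and 13.4 FPKM at 5 mM (-0.51 ± 0.064, adjusted p = 0.00069). All 3 values at 10 mM were below all 3 at 5 mM. Dhcr7, the last enzyme on the way to cholesterol (-0.38 ± 0.074, adjusted p = 0.010), and Lss, which closes the sterol ring (-0.29 ± 0.053, adjusted p = 0.0062), held in all 6 fits as well. Hmgcs1, an early enzyme of the pathway, averaged 19.9 ± 0.932 FPKM at 10 mM and 24.5 ± 0.877 FPKM at 5 mM (SD, n = 3 each, -0.28 ± 0.065, adjusted p = 0.022), and its call was lost in 5 fits (adjusted p = 0.080 and 0.065 without 10 mM replicates 1 and 2, and 0.058, 0.054 and 0.083 without 5 mM replicates 1, 2 and 3, and 0.0094 to 0.083 over all alternatives). Without 1 library the sterol genes called numbered 8, 5 and 9 without 10 mM replicates 1, 2 and 3, and 5, 5 and 8 without 5 mM replicates 1, 2 and 3.

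Of 13 genes of fatty acid synthesis 1 rose and 2 fell. Scd2, a desaturase that makes monounsaturated fatty acids, had 48.5, 48.2 and 49.8 FPKM at 10 mM, against 71.3, 70.5 and 67.3 FPKM at 5 mM (-0.51 ± 0.080, adjusted p = 0.0030). Me1, malic enzyme, which supplies NADPH, averaged 22.9 ± 1.21 FPKM at 10 mM and 18.4 ± 0.772 FPKM at 5 mM (SD, n = 3 each) and moved the other way (0.30 ± 0.049, adjusted p = 0.0036). The samples of each dose were clear of the other in both genes.

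Of 24 genes of glucose uptake and glycolysis, the pathway that 2-DG blocks, 0 rose and 3 fell, with a median of -0.14. In 14 of the 24 all values at 10 mM were below all values at 5 mM, and 31.7% of all genes tested were separate in one direction or the other. Ldha, which turns pyruvate into lactate, had 192, 193 and 188 FPKM at 10 mM, against 237, 243 and 234 FPKM at 5 mM (-0.32 ± 0.059, adjusted p = 0.0076). Slc16a3, the lactate exporter MCT4, had 8.62, 8.65 and 7.20 FPKM at 10 mM, against 11.1, 10.4 and 10.6 FPKM at 5 mM (-0.36 ± 0.077, adjusted p = 0.016). Both fell without overlap, and the Slc16a3 call was lost in 2 fits (adjusted p = 0.063 without 10 mM replicate 3, and 0.063 without 5 mM replicate 1, and 0.0068 to 0.063 over all alternatives). The third was Pfkl, a phosphofructokinase (-0.21 ± 0.050), lost without any 1 of the 6 libraries (adjusted p = 0.054 to 0.097, and 0.019 to 0.097 over all alternatives). Called members without 1 library numbered 2, 2 and 1 without 10 mM replicates 1, 2 and 3, and 1, 2 and 2 without 5 mM replicates 1, 2 and 3. Hexokinase Hk2, which phosphorylates 2-DG, had 24.8, 26.04 and 25.2 FPKM at 10 mM, against 27.2, 29.4 and 27.7 FPKM at 5 mM, and the glucose transporter gene Slc2a1 had 68.2, 68.4 and 65.99 FPKM at 10 mM, against 74.05, 75.9 and 76.6 FPKM at 5 mM. Neither passed (-0.14 ± 0.060, adjusted p = 0.19, and -0.16 ± 0.048, adjusted p = 0.068), although both sets of values lay apart. Pdk1, the kinase that shuts pyruvate dehydrogenase, was the 1 called gene among 25 of the TCA cycle and pyruvate dehydrogenase, with 8.57, 8.09 and 8.54 FPKM at 10 mM, against 10.4, 11.3 and 10.8 FPKM at 5 mM (-0.33 ± 0.050, adjusted p = 0.0024).

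Several lists of energy metabolism, and that of ribosomal proteins, had no called member (limma). The count was 0 of 4 genes that sense glucose phosphate through MondoA, 0 of 8 of the pentose phosphate pathway, 0 of 16 of ATP synthase, 0 of 12 mitochondrially encoded mRNAs and 0 of 56 cytosolic ribosomal proteins. Unadjusted p-values under 0.05 (limma) were found for 1, 1, 1, 0 and 0 of these in the same order, and for 2813 of all genes tested. Of 38 nuclear genes of respiratory complexes I to IV the single call was Sdhd, a subunit of succinate dehydrogenase (-0.22 ± 0.045, adjusted p = 0.013), lost in 3 fits (adjusted p = 0.052 without 10 mM replicate 1, and 0.053 and 0.055 without 5 mM replicates 1 and 2, and 0.011 to 0.066 over all alternatives). Txnip, a brake on glucose uptake that follows glucose phosphate levels, had 46.7, 48.5 and 48.9 FPKM at 10 mM, against 44.4, 41.9 and 42.05 FPKM at 5 mM (0.16 ± 0.075, adjusted p = 0.23). Its relative Arrdc4 had 27.5, 27.2 and 28.6 FPKM and 27.7, 26.4 and 26.8 FPKM in the same order (0.042 ± 0.050, adjusted p = 0.69), and these values overlapped.

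Naive pluripotency genes, which mark the state of the early epiblast, passed in 1 of 24 members, with a median of -0.09. It was Tdgf1, the Nodal coreceptor Cripto, which averaged 146 ± 3.76 FPKM at 10 mM and 174 ± 9.61 FPKM at 5 mM (SD, n = 3 each, -0.24 ± 0.060, adjusted p = 0.029). That call was lost in 5 fits (adjusted p = 0.090, 0.10 and 0.057 without 10 mM replicates 1, 2 and 3, and 0.070 and 0.12 without 5 mM replicates 1 and 2, and 0.0054 to 0.12 over all alternatives). The core factor genes did not pass. Pou5f1 had 117, 112 and 98.4 FPKM at 10 mM, against 116, 123 and 129 FPKM at 5 mM (-0.17 ± 0.10, adjusted p = 0.37). Sox2 had 158, 172 and 181 FPKM at 10 mM, against 189.7, 174 and 183 FPKM at 5 mM (-0.096 ± 0.086, adjusted p = 0.57). Nanog had 164, 164 and 173 FPKM at 10 mM, against 176, 187 and 172 FPKM at 5 mM (-0.094 ± 0.075, adjusted p = 0.52). The doses overlapped for all 3 factors, and also for the naive marker Zfp42 (-0.13 ± 0.064, adjusted p = 0.25).

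Of 18 formative and primed epiblast genes 1 rose and 7 fell, with a median of -0.21. Dnmt3b, a DNA methyltransferase that sets new methylation as the epiblast matures (chr2:153649450-153687730, GRCm38), had 30.03, 29.5 and 32.3 FPKM at 10 mM, against 48.6, 52.3 and 50.2 FPKM at 5 mM. Its change of -0.70 ± 0.051 had the lowest adjusted p of the genes named here (3.1e-05). Lefty1, a secreted Nodal antagonist, had 60.1, 55.2 and 54.4 FPKM at 10 mM, against 89.5, 87.8 and 93.00 FPKM at 5 mM (-0.66 ± 0.10, adjusted p = 0.0029). Pou3f1, the epiblast factor Oct6, had 2.17, 2.13 and 1.90 FPKM at 10 mM, against 3.68, 3.51 and 3.77 FPKM at 5 mM (-0.60 ± 0.062, adjusted p = 0.00035). For each gene the doses were separate, and Pou3f1 was low at both. The 1 rise was Cdh2, N-cadherin, with 15.3, 16.2 and 16.3 FPKM at 10 mM, against 11.9, 11.2 and 11.5 FPKM at 5 mM (0.44 ± 0.052, adjusted p = 0.00055). The count of falls was 5, 4 and 6 without 10 mM replicates 1, 2 and 3, and 5, 5 and 4 without 5 mM replicates 1, 2 and 3.

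Of 13 genes of DNA methylation and demethylation 0 rose, 4 fell, Dnmt3b among them, and 9 did not pass. Dnmt3a, the other new-methylation enzyme, had 5.44, 5.37 and 5.13 FPKM at 10 mM, against 6.89, 7.24 and 7.07 FPKM at 5 mM (-0.35 ± 0.062, adjusted p = 0.0054). Uhrf1, which guides maintenance methylation, had 55.4, 57.4 and 56.3 FPKM at 10 mM, against 67.6, 66.5 and 66.5 FPKM at 5 mM (-0.24 ± 0.046, adjusted p = 0.0079). The fourth was Tdg, a glycosylase of demethylation (-0.26 ± 0.068), lost without any 1 of the 6 libraries (adjusted p = 0.067 to 0.13, and 0.021 to 0.13 over all alternatives). Both DNA methylation and epiblast lists hold Dnmt3a and Dnmt3b, so their counts share these genes.

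Simple keratins, the filaments of early epithelia and trophectoderm, fell in 3 of 12 members of their list and rose in 0. Krt8 had 51.1, 48.7 and 52.5 FPKM at 10 mM, against 73.5, 73.2 and 72.7 FPKM at 5 mM (-0.52 ± 0.074, adjusted p = 0.0017). Its partner Krt18 had 45.4, 43.1 and 47.8 FPKM at 10 mM, against 62.4, 65.5 and 57.7 FPKM at 5 mM (-0.44 ± 0.074, adjusted p = 0.0043). The pair moved alike and neither overlapped. Krt7 averaged 0.727 ± 0.0712 FPKM at 10 mM and 1.11 ± 0.121 FPKM at 5 mM (SD, n = 3 each) and lost its call without any 1 of the 6 libraries (adjusted p = 0.070 to 0.16, and 0.020 to 0.16 over all alternatives).

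Imprinted genes split, with 1 of 19 higher and 3 lower, and all 4 calls held in the 6 fits. Beside Phlda2, the falls were Nnat, a small membrane protein of neurons, with 5.60, 5.74 and 3.88 FPKM at 10 mM, against 8.51, 8.10 and 8.12 FPKM at 5 mM (-0.62 ± 0.11, adjusted p = 0.0066), and Peg10, a retrotransposon-derived gene of the placenta, with 25.1, 25.3 and 26.2 FPKM at 10 mM, against 31.8, 32.04 and 32.2 FPKM at 5 mM (-0.32 ± 0.050, adjusted p = 0.0029). For Nnat 1 sample at 10 mM was lower than the other two, and the doses stayed apart. Dlk1, a Notch-like ligand, moved up (0.41 ± 0.079, adjusted p = 0.0088), at 7.37 ± 0.644 FPKM at 10 mM and 5.28 ± 0.200 FPKM at 5 mM (SD, n = 3 each).

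Other lineage lists changed in few members. Of 15 FGF and ERK feedback genes 2 rose and 1 fell, the last being Spry4, an inhibitor of receptor kinase signalling, with 8.87, 9.32 and 9.64 FPKM at 10 mM, against 12.8, 12.1 and 12.1 FPKM at 5 mM (-0.38 ± 0.060, adjusted p = 0.0032). Of 13 primitive endoderm genes 2 rose, of 10 neuroectoderm genes 1 rose and 1 fell, and of 13 germline genes 1 fell, with no call among them that held in all 6 fits. Mesoderm genes passed in 0 of 7 and replication-dependent histone genes in 0 of 6. Unadjusted p-values under 0.05 were found for 1 mesoderm and 1 histone genes. The 13 genes of the 2-cell-like state in the table were all under the filter on low values.

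Among 30 genes of the cell cycle and replication licensing 7 fell and 0 rose (median -0.15). Ccne1, the cyclin that starts DNA replication, had 36.9, 38.4 and 37.97 FPKM at 10 mM, against 51.4, 52.4 and 53.4 FPKM at 5 mM (-0.46 ± 0.057, adjusted p = 0.00065). Cdc6, which loads the replicative helicase, had 7.15, 7.49 and 8.05 FPKM at 10 mM, against 9.89, 10.00 and 9.67 FPKM at 5 mM (-0.34 ± 0.065, adjusted p = 0.0081). Both were lower in every 10 mM sample. Counts of called genes in the 6 fits were 3, 2 and 2 without 10 mM replicates 1, 2 and 3, and 2, 2 and 4 without 5 mM replicates 1, 2 and 3. Targets of p53 rose in 6 of 22 members and fell in 0. Plk2, a kinase of the stress response, had 50.5, 54.6 and 52.2 FPKM at 10 mM, against 43.2, 42.2 and 38.9 FPKM at 5 mM (0.33 ± 0.053, adjusted p = 0.0031), and it was the 1 member called in all 6 fits. The cell cycle inhibitor gene Cdkn1a averaged 121 ± 3.30 FPKM at 10 mM and 104 ± 3.58 FPKM at 5 mM (SD, n = 3 each, 0.22 ± 0.056, adjusted p = 0.035) and lost its call without any 1 of the 6 libraries (adjusted p = 0.068 to 0.15, and 0.0046 to 0.15 over all alternatives). The p53 list count was 3, 1 and 3 without 10 mM replicates 1, 2 and 3, and 2, 1 and 2 without 5 mM replicates 1, 2 and 3.

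Among 32 autophagy and lysosome genes 8 rose and 0 fell (median 0.09). Over all genes tested 3.41% were called higher. Sqstm1, the receptor p62 that brings ubiquitinated cargo to autophagosomes, had 176, 179.9 and 163 FPKM at 10 mM, against 131, 126 and 132 FPKM at 5 mM (0.41 ± 0.064, adjusted p = 0.0029). Ctsa, a lysosomal carboxypeptidase, averaged 45.9 ± 0.343 FPKM at 10 mM and 39.03 ± 0.343 FPKM at 5 mM (SD, n = 3 each, 0.23 ± 0.042, adjusted p = 0.0063). These were the members called in all 6 fits, and the list count was 5, 2 and 2 without 10 mM replicates 1, 2 and 3, and 4, 2 and 2 without 5 mM replicates 1, 2 and 3. Antioxidant genes controlled by NRF2 rose in 3 of 24 members and fell in 0, with a median of 0.07 and 15 of the 24 changes positive. Hmox1, heme oxygenase, had 181, 176 and 178 FPKM at 10 mM, against 135, 138 and 139 FPKM at 5 mM (0.38 ± 0.054, adjusted p = 0.0017). Slc7a11, also called, is counted among the amino acid transporters too. Its call was lost without any 1 of the 6 libraries (adjusted p = 0.067 to 0.13, and 0.010 to 0.13 over all alternatives). Targets of HIF outside glycolysis rose in 2 of 18 and fell in 0, with a median of 0.03 and 10 of the 18 changes positive. The vessel growth factor gene Vegfa had 35.6, 32.5 and 30.9 FPKM at 10 mM, against 26.3, 25.6 and 26.7 FPKM at 5 mM (0.32 ± 0.054, adjusted p = 0.0042). The other called HIF target, Ero1l, is also counted among the ER chaperones and folding enzymes. Hmox1 and Vegfa were each the only member of their list called in all 6 fits. Cytosolic heat shock chaperones rose in 3 of 17 and fell in 0, but the list median was 0.01 and 9 of the 17 changes were positive. Cryab, a small heat shock protein, had 65.2, 69.4 and 60.1 FPKM at 10 mM, against 45.8, 43.5 and 45.03 FPKM at 5 mM (0.52 ± 0.088, adjusted p = 0.0039), and Bag3, a co-chaperone that steers clients to autophagy, averaged 31.3 ± 0.976 FPKM at 10 mM and 25.4 ± 1.71 FPKM at 5 mM (SD, n = 3 each, 0.29 ± 0.055, adjusted p = 0.0081).

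Among 19 interferon response genes 4 rose and 0 fell. Irf7, a transcription factor of the antiviral response, had 1.87, 1.79 and 1.88 FPKM at 10 mM, against 1.13, 1.14 and 1.22 FPKM at 5 mM (0.40 ± 0.066, adjusted p = 0.0038). Ifit2, an antiviral RNA-binding protein, had 3.66, 3.37 and 3.21 FPKM at 10 mM, against 2.32, 2.34 and 2.49 FPKM at 5 mM (0.38 ± 0.062, adjusted p = 0.0032). Fits on fewer libraries called this many members: 2, 2 and 5 without 10 mM replicates 1, 2 and 3, and 2, 3 and 3 without 5 mM replicates 1, 2 and 3. Macrophages also express these genes. Of 18 macrophage genes 0 were called (limma), 2 with an unadjusted p under 0.05, and 8 defining macrophage markers summed to 57.24 to 59.25 FPKM at 10 mM and 63.75 to 66.01 FPKM at 5 mM, with Lyz2, the most abundant of them, at 35.4 FPKM at 10 mM and 40.3 FPKM at 5 mM. Of the 8 markers 4 had a positive change and 4 a negative one, and 0 passed. Their part in the interferon values was not tested.

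Of 21 fibroblast genes, which encode parts of the matrix and cytoskeleton, 3 rose and 0 fell. Lox, the enzyme that crosslinks collagen, had 302, 326 and 320.5 FPKM at 10 mM, against 248, 198 and 234 FPKM at 5 mM (0.48 ± 0.087, adjusted p = 0.0057). Col5a2, a chain of collagen V, had 123, 121 and 118 FPKM at 10 mM, against 86.8, 83.95 and 87.8 FPKM at 5 mM (0.48 ± 0.078, adjusted p = 0.0034). In both the doses were apart, and Lox had 1 low sample at 5 mM. The list median was 0.15. The 8 defining fibroblast markers, among them Col1a1, Col1a2 and Thy1, summed to 1048 to 1160 FPKM at 10 mM and 976.9 to 1047 FPKM at 5 mM. None of the 8 passed, with adjusted p between 0.062 and 0.93, and none was at 0. Whether cells of this kind had a part in the rises of Lox, Col5a2 and the other matrix genes above was not tested.

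Set beside the mock samples, the leading genes differed in how they ran over the 3 levels of 2-DG. The 2 comparisons share the 5 mM samples, so their values are given side by side and not tested against each other. At 5 mM 4686 genes (35.3%) differed from mock, and at 10 mM 6401 (48.2%). In mock, 5 mM and 10 mM samples Ddit3 averaged 9.16, 19.7 and 30.9 FPKM, Trib3 20.2, 56.1 and 82.1 FPKM, and Hspa5 213, 404 and 491 FPKM. In the falling direction Dnmt3b averaged 92.7, 50.4 and 30.6 FPKM, Phlda2 48.5, 14.5 and 5.93 FPKM, and Insig1 31.9, 13.7 and 9.33 FPKM. Each of these 6 genes moved in 1 direction along the dose.

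Prph and Bst2 ran in opposite directions over the 2 intervals. Prph averaged 6.57, 5.08 and 9.23 FPKM in mock, 5 mM and 10 mM samples. It was lower at 5 mM than in mock (-0.32 ± 0.082, adjusted p = 0.0077) and higher at 10 mM than in mock (0.44 ± 0.082, adjusted p = 0.00063). Bst2, the membrane protein tetherin that holds back budding viruses, had 93.1, 95.9 and 102 FPKM in mock samples, 38.9, 40.3 and 42.2 FPKM at 5 mM and 60.6, 60.2 and 53.5 FPKM at 10 mM, so that 10 mM stood between the others. It was lower than mock at both doses (-1.24 ± 0.12 at 5 mM, adjusted p = 2.8e-06, and -0.73 ± 0.12 at 10 mM, adjusted p = 0.00015) and higher at 10 mM than at 5 mM (0.51 ± 0.12, adjusted p = 0.021). That last call was lost in 4 fits (adjusted p = 0.069 and 0.085 without 10 mM replicates 1 and 2, and 0.072 and 0.068 without 5 mM replicates 1 and 2, and 0.00049 to 0.085 over all alternatives). The 8 macrophage markers summed to 130.1 to 144.7 FPKM in mock samples, 63.75 to 66.01 FPKM at 5 mM and 57.24 to 59.25 FPKM at 10 mM. The part of macrophages in the Bst2 values was not tested. Csf1 and Ptgs2, chosen after their values were seen, had a higher mean at 10 mM than at 5 mM or in mock. Csf1, the growth factor of macrophages, had 61.7, 61.95 and 58.6 FPKM in mock samples, 55.3, 55.8 and 59.1 FPKM at 5 mM and 80.4, 82.8 and 79.2 FPKM at 10 mM, with no difference past the threshold at 5 mM (-0.097 ± 0.044, adjusted p = 0.11) and a rise of 0.50 ± 0.044 between the doses (adjusted p = 0.00016). Ptgs2, the inducible cyclooxygenase, had 46.8, 44.6 and 37.6 FPKM in mock samples, 38.4, 28.8 and 37.8 FPKM at 5 mM and 47.5, 50.1 and 52.00 FPKM at 10 mM, and rose between the doses by 0.51 ± 0.10 (adjusted p = 0.010). Its fall at 5 mM against mock (-0.30 ± 0.10, adjusted p = 0.034) was lost in 7 of 15 alternatives (0.011 to 0.15). At 10 mM against mock Csf1 passed (0.41 ± 0.044, adjusted p = 5.9e-06). Ptgs2 did not pass there (0.21 ± 0.10, adjusted p = 0.094, and 0.055 to 0.36 over all alternatives).

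**Figure D3:**
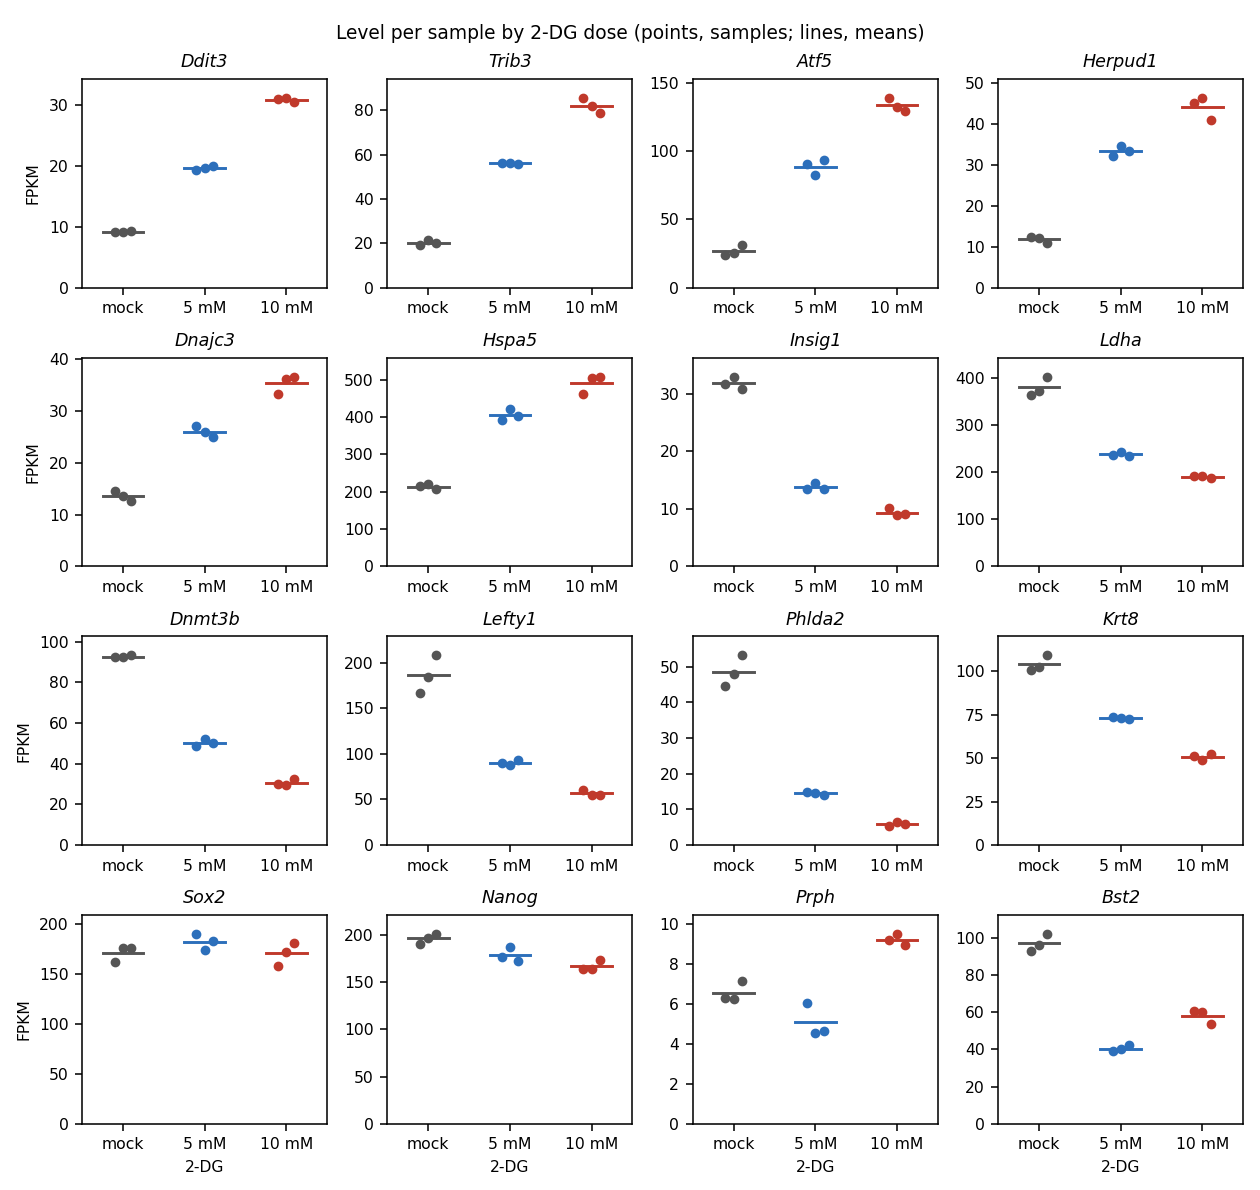
FPKM of 16 genes in mock, 5 mM and 10 mM 2-DG samples (points, samples; lines, means; each vertical axis starts at 0). Ddit3 and Trib3 climb in steps, Dnmt3b and Phlda2 descend in steps, Sox2 and Nanog overlap between the 2-DG doses, and Prph and Bst2 are lowest at 5 mM.

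The dose step of oligomycin, a blocker of the mitochondrial ATP synthase, shares no sample with the 2-DG step and gives a comparison of 10 nM with 1 nM. It was the larger step, with 6161 genes called (46.4%), and the doses of the inhibitors are not matched. The difference of the steps, 2-DG minus oligomycin, passed for 2514 genes (18.9%), of which 1895 (14.3%) were positive and 619 (4.66%) negative. That split depends on the scaling, since positive differences were 75.4% of the calls as deposited, 57.1% with median ratio scaling and 59.2% with quantile normalization. Leaving out oligomycin 10 nM replicate 1 gave 3771 calls of the difference, 63.6% of them positive. Of the 779 genes called in the 2-DG step 258 also had a step that differed from that of oligomycin. Cell markers moved with the oligomycin step: the 8 stem cell markers summed to 402.1 to 540.2 FPKM at 10 nM and 1044 to 1140 FPKM at 1 nM, and the 8 fibroblast markers to 4157 to 4277 FPKM at 10 nM and 3074 to 3164 FPKM at 1 nM. The part of such shifts in the differences below was not tested.

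The naive pluripotency genes showed the widest contrast of list medians. Their median was -0.09 in the 2-DG step and -1.08 in the oligomycin step, and for 23 of the 24 the difference passed, each positive, with 21 to 23 over the alternatives. Sox2 changed by -0.096 ± 0.086 in the 2-DG step and by -1.24 ± 0.086 in the oligomycin step, a difference of 1.14 ± 0.12 (adjusted p = 3.7e-05). Nanog changed by -0.094 ± 0.075 and -1.09 ± 0.075 in the same order (difference 1.00 ± 0.11, adjusted p = 3.5e-05), and Pou5f1 by -0.17 ± 0.10 and -1.13 ± 0.10 (difference 0.95 ± 0.15, adjusted p = 0.00060). The 3 factors were lower at the upper oligomycin dose and did not pass between the 2-DG doses.

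Genes of glycolysis went the other way. Their median was -0.14 in the 2-DG step and 0.24 in the oligomycin step, and of 24 genes 12 had a negative difference (11 to 16 over the alternatives) and 2 a positive one. Slc16a3 had 8.62, 8.65 and 7.20 FPKM at 10 mM and 11.1, 10.4 and 10.6 FPKM at 5 mM of 2-DG, and 32.01, 34.7 and 34.1 FPKM at 10 nM and 17.1, 16.3 and 16.97 FPKM at 1 nM of oligomycin. The difference of its steps was -1.32 ± 0.11 (adjusted p = 7.2e-06). Ldha changed by -0.32 ± 0.059 in the 2-DG step and by 0.54 ± 0.059 in the oligomycin step (difference -0.85 ± 0.084, adjusted p = 2.1e-05), and Slc2a1 by -0.16 ± 0.048 and 0.46 ± 0.048 (difference -0.61 ± 0.068, adjusted p = 4.7e-05). In each of these genes the 2-DG step was negative and the oligomycin step positive.

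Of 22 genes of the integrated stress response 12 had a positive difference and 0 a negative one, with a count of positive differences of 8 to 12 over the alternatives. Trib3 changed by 0.54 ± 0.064 in the 2-DG step and by -0.037 ± 0.064 in the oligomycin step (difference 0.58 ± 0.090, adjusted p = 0.00068), and Ddit3 by 0.62 ± 0.072 and 0.19 ± 0.072 (difference 0.43 ± 0.10, adjusted p = 0.0090). Trib3 averaged 20.2 FPKM in mock, 75.2 FPKM at 1 nM and 73.5 FPKM at 10 nM of oligomycin. Ddit3 averaged 9.16, 39.65 and 45.7 FPKM in the same order. Both genes thus stood above mock already at the lower oligomycin dose, and above their means at 5 mM of 2-DG (56.1 and 19.7 FPKM). In the ER chaperone list 5 of 20 genes had a positive difference and 0 a negative one (3 to 7 positive over the alternatives), and Dnajc3 changed by 0.43 ± 0.063 and -0.001 ± 0.063 (difference 0.43 ± 0.089, adjusted p = 0.0045). Positive differences also came in 13 of 20 tRNA synthetases (8 to 14 over the alternatives) and in 13 of 19 genes of amino acid and one-carbon synthesis (10 to 14). Medians in the 2-DG and oligomycin steps were 0.07 and -0.21 for the synthetases. For the synthesis genes they were 0.14 and -0.28, so in both lists the oligomycin step had the larger median, a fall. Asns did not pass in the 2-DG step and changed by -0.39 ± 0.060 in the oligomycin step (difference 0.56 ± 0.085, adjusted p = 0.00056). In the cholesterol list 4 of 24 genes differed, all positive (1 to 7 over the alternatives), and the medians were -0.28 in the 2-DG step and -0.37 in the oligomycin step. Over all genes tested 14.3% had a positive difference. The cholesterol count is near that share, as is the low end of the ER chaperone count.

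**Figure D4:**
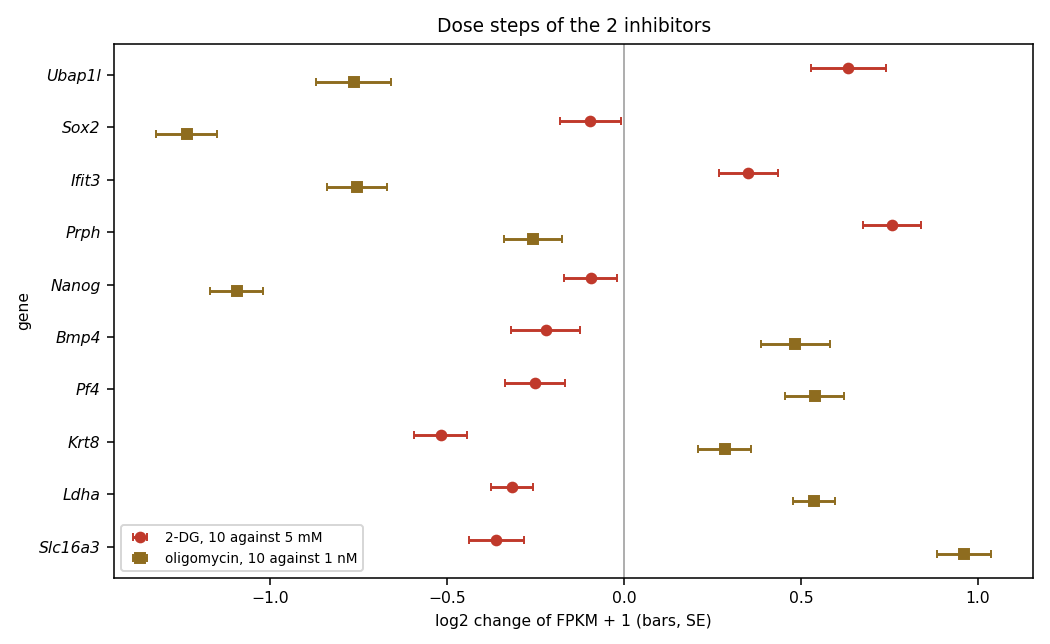
Log2 change (FPKM + 1) with its standard error in the 2-DG step, 10 against 5 mM (red circles), and in the oligomycin step, 10 against 1 nM (brown squares), for the 5 named genes with the largest positive and the 5 with the largest negative difference of the steps. Sox2 and Nanog lie near 0 for 2-DG and near -1 for oligomycin, and Slc16a3, Ldha and Krt8 lie on opposite sides of 0.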

How the data were processed

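Total RNA of 15 samples in 5 groups of 3 was sequenced, and the values used are the FPKM per gene that the authors deposited in a single table. The submitters' processing notes list Bowtie2 2.2.3, HISAT2 2.1.0, HTSeq 0.6.0 and the GRCm38 build, with no role given, and the read total that scales the FPKM and whether counting used strand are not given in the sources used here. In every sample 95.4% to 96.2% of the low values were whole multiples, within 0.05, of 1 read's worth, from which depth was derived. Depth at this level limits genes of low FPKM most.

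The 13284 genes reaching 1 FPKM in 3 or more samples were fitted as log2(FPKM + 1) with 1 mean per group over all 15 samples in limma 3.58.1 (R 4.3.3), with a mean-variance trend. P-values were two-sided and adjusted by Benjamini-Hochberg over all 13284 genes, with a threshold of 0.05. Figures and tables were made with Python 3.11.15 and pandas 2.3.3. Replicate numbers did not pair samples, so no block was used. Alternatives were another pseudocount, filter, scaling, trend and sample set, removal of the trend with gene length, a block for replicate number, and leaving out each replicate.

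The comparison and the 38 gene lists (767 genes) were chosen with earlier results of these data known. Genes are named by rule: the 12 largest called rises and falls with at least 5 FPKM at one dose and no overlap, the most changed called members of each list, at most 4 of them, and a fixed set of 18 genes. Predicted genes, ribosomal protein genes, pseudogenes and genes of ribosomal or small noncoding RNA stayed out of the first group. Canx, Calr, Cebpg, Chac1, Csf1, Ctsa, Dhcr7, Jdp2, Lss, Ptgs2, Slc1a4 and Stc2 were added after their values were seen. Promoter windows are from RefSeq on GRCm38.p6 and were matched by symbol, and each motif is a plain match of its letters.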

Additional observations from a re-analysis of the deposited data

Results flagged for a closer look

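Among the named genes, 10 are listed here because their 2-DG step (10 against 5 mM) differed from their oligomycin step (10 against 1 nM), with no sample shared between the steps. Each difference, 2-DG minus oligomycin on the log2(FPKM + 1) scale, passed the threshold (limma, Benjamini-Hochberg adjustment) and did so in all 21 alternatives.

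Those with the largest positive differences were Ubap1l (1.40), Sox2 (1.14), Ifit3 (1.11), Prph (1.02) and Nanog (1.00). Ubap1l changed by 0.63 ± 0.11 in the 2-DG step and by -0.77 ± 0.11 in the oligomycin step. Prph changed by 0.76 ± 0.082 and -0.26 ± 0.082 in the same order, so that both genes moved in opposite directions with the 2 inhibitors. Ifit3, an antiviral RNA-binding protein, changed by 0.35 ± 0.084 and -0.76 ± 0.084, and its 2-DG call was lost in 4 of the 6 fits without 1 library (adjusted p = 0.093 and 0.11 without 10 mM replicates 1 and 2, and 0.063 and 0.10 without 5 mM replicates 1 and 3, and 0.013 to 0.11 over all alternatives).

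Those with the largest negative differences were Slc16a3 (-1.32), Ldha (-0.85), Krt8 (-0.80), Pf4 (-0.79) and Bmp4 (-0.71). Krt8 changed by -0.52 ± 0.074 in the 2-DG step and by 0.28 ± 0.074 in the oligomycin step. Bmp4, a growth factor of the stem cell niche and early mesoderm, had 4.13, 4.49 and 3.81 FPKM at 10 mM and 5.31, 5.17 and 4.51 FPKM at 5 mM of 2-DG, and 8.34, 11.4 and 10.9 FPKM at 10 nM and 6.84, 7.54 and 6.51 FPKM at 1 nM of oligomycin. Pf4, a chemokine of platelets that macrophages also express, had 0.540, 0.721 and 0.611 FPKM at 10 mM and 0.936, 1.14 and 0.741 FPKM at 5 mM of 2-DG, and 15.6, 16.6 and 19.2 FPKM at 10 nM and 11.7, 10.8 and 11.8 FPKM at 1 nM of oligomycin. Neither Bmp4 nor Pf4 passed in the 2-DG step (adjusted p = 0.21 for Bmp4 and 0.098 for Pf4). Pf4 passed the filter on low values through the mock and oligomycin samples. Near 1 FPKM, as in the 2-DG samples, log2(FPKM + 1) understates a change. The size of its difference is therefore uncertain, and it ran from -1.08 to -0.71 over the alternatives.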

How the results depend on the processing

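The 779 calls between the 2-DG doses (453 higher, 326 lower) shrank most when 1 library was left out, to 273 to 469 in all, 155 to 267 higher and 118 to 202 lower. With the trend with gene length removed they numbered 1185, of which 533 were lower, and 535 without the filter on low values. A fit with the replicate block gave 597 calls, 571 of them among the 779; deviations of same-numbered samples correlated at 0.06, 0.07 and -0.11, so the numbers mark no pairs. With a filter at 5 FPKM, lower calls against mock were 1726 at 5 mM and 2354 at 10 mM, since fewer genes were tested. Negative differences between the dose steps numbered 619, and 405 without the filter, 1073 with median ratio scaling, 1056 with quantile normalization, 1294 with the length trend removed and 394 to 1372 without 1 library, the last without oligomycin 10 nM replicate 1. Calls of the difference in both directions rose from 2514 to 3771 without oligomycin 10 nM replicate 1. That library had the largest root mean square deviation of any library, 0.181, against 0.145 and 0.118 in replicates 2 and 3 of its group. Its correlation (rho) with gene length was 0.52, against -0.46 and -0.38 in replicates 2 and 3. The cause of these shifts in counts was not tested. Positive differences were 75.4% of calls, and 56.7% with the length trend removed. Higher calls were 42.5% at 5 mM against mock and 51.8% with median ratio scaling, and 40.4% and 52.4% (quantile normalization) in the oligomycin step. No scaling moved the median of all genes by over 0.1. Over all alternatives, values of named genes kept their side of the threshold 1562 times, fell short 253 times, passed anew 11 times and reversed 0 times.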
